A study of Homo sapiens with 12 samples.

Results

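The nuclear genes for subunits and assembly factors of respiratory chain complexes II, III and V were followed by RNA sequencing in HepG2, a cell line from a human hepatocellular carcinoma. They were taken by name from a list of these complexes' genes, and all 38 were found among the 57500 genes counted, 7 of complex II, 13 of complex III and 18 of complex V. The groups WT, shTST and overTST held 4 libraries each. WT cells carry no other label, shTST cells carried a short hairpin RNA against TST, and overTST cells were made to overexpress TST, the mitochondrial enzyme thiosulfate sulfurtransferase (rhodanese). Every group, WT included, was kept for 24 h in the usual culture medium, which holds 400 µM glycine. Per the study's methods the lines were made with lentivirus, and transduced cells were selected with Blasticidin S. The TST transgene was codon optimized, Myc tagged and driven by a CMV promoter. Neither line is stated to be 1 clone. No source used here gives WT a control vector, so TST level, transduction, selection and cell line cannot be told apart. The study's methods define independent experiments in general as run on different days, but no source used here ties a library to its culture or day, so p-values measure the spread between these libraries, part of which may be technical.

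Complex II, succinate dehydrogenase, oxidizes succinate in the citrate cycle and passes the electrons to ubiquinone, and all of its subunits are encoded in the nucleus. Complex III carries electrons from ubiquinol to cytochrome c and moves protons across the inner mitochondrial membrane, and complex V, the ATP synthase, lets protons flow back through a rotating ring and makes ATP in its F1 head. Complexes III and V also need subunits that are encoded in mitochondria.

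The promoters of the genes were read first, for motifs of factors known for the transcription of respiratory chain genes. RefSeq windows of 250 bases before and 50 after the start site (GRCh38.p14) matched 30 of the 38 genes, and none was matched for CYC1, ATP5F1D, UQCC3, SDHC, ATP5MC3, ATP5F1B, UQCRB and ATP5MF. The NRF1 motif, GCGCNTGCG on either strand, was found at 14 of the 30, beside 17.3% of the 10056 genes with a promoter that were tested in overTST and 7.47% of all 35116 promoters. The motif of GABPA and other ETS factors, CCGGAAG on either strand, was found at 11, beside 22.7% and 10.3%. That of YY1, ANATGGCGG on either strand, was found at 8, beside 6.79% and 2.75%. A match says only that these letters are in this window. Of the 19 matched genes that were higher in overTST, as described below, 9 held the NRF1 motif, 8 that of GABPA and 4 that of YY1, and of the other 11 the counts were 5, 3 and 4.

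The bases around the first NRF1 match before the start site are shown for 6 genes, with that match in capitals. All other bases, also those of a further match on either strand, are left in lower case. At SDHD a further match on the other strand overlaps the capitals. SDHD, UQCR11, UQCC2 and ATP5ME, which were higher in overTST, can thus be read beside SDHA and SDHAF4, which were not called. They are SDHD at chr11:112086738-112086796 (plus strand), UQCR11 at chr19:1605463-1605516 (minus strand), UQCC2 at chr6:33711714-33711772 (minus strand), ATP5ME at chr4:674461-674519 (minus strand), SDHA at chr5:218130-218188 (plus strand) and SDHAF4 at chr6:70566884-70566929 (plus strand).
SDHD: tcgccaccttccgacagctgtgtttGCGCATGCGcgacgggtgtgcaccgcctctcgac
UQCR11: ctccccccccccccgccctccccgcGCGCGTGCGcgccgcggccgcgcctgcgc
UQCC2: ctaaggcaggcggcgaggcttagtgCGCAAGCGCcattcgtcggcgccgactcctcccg
ATP5ME: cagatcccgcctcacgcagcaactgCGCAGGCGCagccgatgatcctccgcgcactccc
SDHA: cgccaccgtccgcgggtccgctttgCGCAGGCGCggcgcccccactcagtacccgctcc
SDHAF4: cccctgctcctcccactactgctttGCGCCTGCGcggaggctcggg

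The first GABPA match is shown in the same way at UQCR11, which held both motifs, chr19:1605548-1605604 (minus strand), and at ATP5PD, chr17:75047039-75047095 (minus strand). Both genes were higher in overTST. Of 22 stretches with an NRF1 or GABPA match before the start site, 9 had at most 30 bases inside the annotated gene. Only these could be printed. The GABPA stretch of SDHAF2, which was not called in overTST and held 4 such matches, was among them and is left out here.
UQCR11: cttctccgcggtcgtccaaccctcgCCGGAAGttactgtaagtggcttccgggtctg
ATP5PD: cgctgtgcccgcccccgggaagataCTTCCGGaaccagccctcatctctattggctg

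Library totals ran from 22911380 to 45120508 counts, and each overTST total was below each WT total (p = 0.0286 by an exact permutation test, two-sided, which with groups of 4 can give no smaller value). The share of counts on mitochondrially encoded genes was 6.91% to 11.98% in WT, 6.84% to 8.65% in shTST and 10.8% to 11.7% in overTST. All 9 hepatocyte markers were present at 97.6 TPM (counts per exonic length, scaled to the library) or more in each library, and no marker of fibroblasts, endothelium or blood passed 2.32 TPM. TST had 47.2, 47.5, 52.8 and 48.5 CPM (counts scaled to library size as adjusted by TMM) in WT, 32.97, 33.5, 36.5 and 33.5 in shTST and 51.8, 56.00, 61.6 and 62.1 in overTST. Each shTST library was below WT (log2 fold change −0.52, SE 0.055, edgeR adjusted p = 3.2e-06), whereas overTST was higher but overlapped WT (0.24, SE 0.062, adjusted p = 0.00384). Transcripts of a codon-optimized transgene need not be counted on the native gene.

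The levels of the genes relative to each other were set per length, as TPM, in the 4 WT libraries. In complex II, SDHA, the flavoprotein that oxidizes succinate, led with 97.6 ± 8.75 TPM (SD, n = 4), followed by SDHB, the iron-sulfur subunit, with 52.8 ± 4.01. The assembly factor SDHAF4 was lowest with 7.11 ± 0.839. In complex III, CYC1 (cytochrome c1) with 321 ± 24.6 TPM and the core subunit UQCRC1 with 316 ± 30.1 came first, and their ranges overlapped. In complex V, the catalytic β subunit ATP5F1B had 807 ± 75.9 TPM, and its range did not overlap that of ATP5F1C, the next gene, with 209.5 ± 22.9. From ATP5MF, with 158 ± 15.6, down to ATP5MC2, with 62.8 ± 8.62, each gene of complex V overlapped its neighbour in this order. The assembly factor ATPAF2 came last with 8.41 ± 0.944. The TPM of SDHC and UQCRB, 22.1 ± 2.14 and 26.2 ± 3.57, were divided by 14160 and 9715 annotated exonic bases, the first of them the longest among the 38. In complex V, the α subunit ATP5F1A, with 141 ± 13 TPM, was divided by 10908 bases and ATP5F1B by 2322. Before division by length, ATP5F1A and ATP5F1B had means of 548 and 666 CPM in WT.

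**Figure D1:**
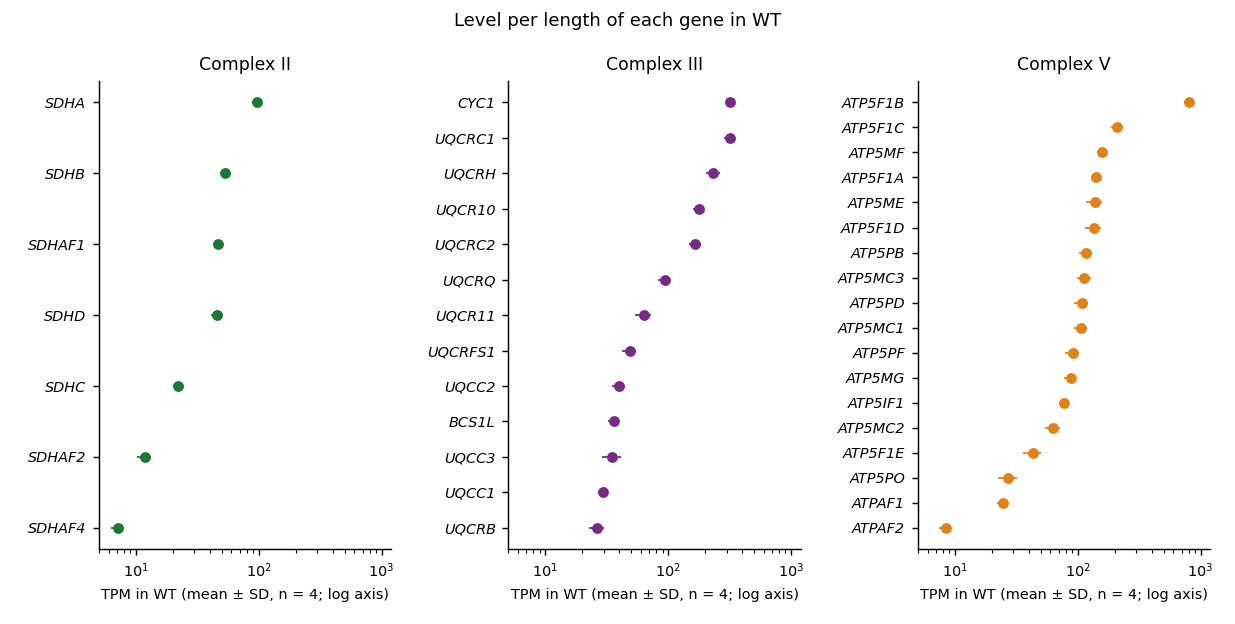
Each point is the mean level of 1 gene in the 4 WT libraries, in TPM on a log axis, with bars of ± SD, by complex. Levels ran from 7.11 TPM for SDHAF4 to 807 for ATP5F1B.

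The overTST line had higher counts of most of these genes. In overTST, 25 of the 38 were higher and 1 was lower than in WT, whereas 15.7% of the 14421 genes tested were higher and 18.2% lower (edgeR's quasi-likelihood test, adjusted p of 0.05 or less over all genes tested). All 38 passed the filter on low counts in each comparison. Their median log2 fold change was 0.24, beside 0.0019 over all genes tested. By complex, 2 of 7 genes of complex II, 9 of 13 of complex III and 14 of 18 of complex V were higher, with median log2 fold changes of 0.10, 0.29 and 0.27. In 21 of the 25 the overTST libraries lay above all WT libraries, as they did in 76.3% of all genes called higher (12% of all genes tested). The CPM given below were scaled by TMM over all 12 libraries, while each fold change comes from the fit of its own comparison. In bulk RNA, fewer cells that express a gene and less of its RNA per cell cannot be told apart.

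**Figure D2:**
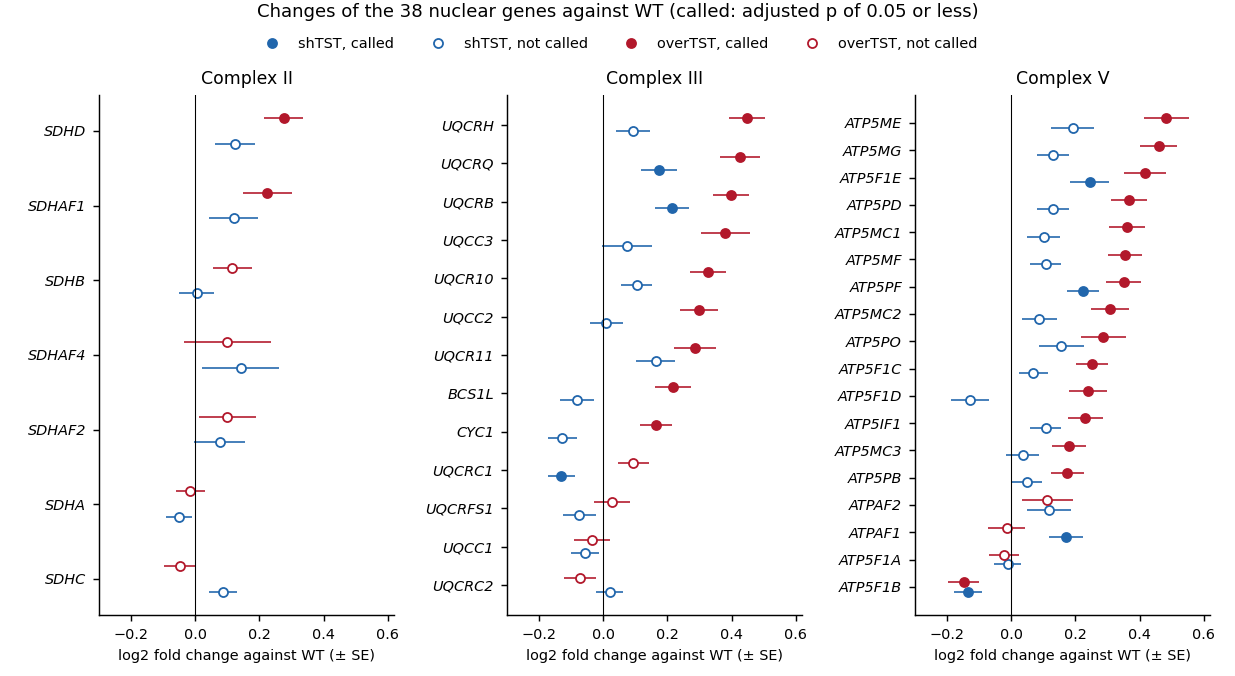
Each line of the plot is 1 gene, with its log2 fold change against WT ± SE in shTST (blue) and overTST (red), and filled points had an adjusted p of 0.05 or less. In overTST 25 genes were higher and 1 lower, and in shTST 5 were higher and 2 lower. Both comparisons share the 4 WT libraries.

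These counts stand beside a trend with coding length. Over all genes tested, the log2 fold change in overTST and the longest coding length of the gene had a Spearman correlation of −0.49 across genes, which share their libraries and are not replicates. Of all genes with up to 600 coding bases 45.2% were higher in overTST, and of those over 1200 bases 7.09% were higher and 29.99% lower. The 38 genes had a median coding length of 490.5 bases, against 1416 over the genes tested. Of the 23 with up to 600 bases 20 were higher, with a median log2 fold change of 0.33 beside 0.19 over all such genes. Of the 9 with over 600 and up to 1200 bases 4 were higher, beside 24.5% of all such genes, and of the 6 longer ones 1 was higher and 1 lower. With the trend removed in each library, 12 of the 38 were higher (13.1% of all genes tested) and 1 was lower (12.5%), and their median log2 fold change was 0.095. The 12 were UQCRB, UQCRH, UQCRQ, BCS1L, ATP5F1C, ATP5MC1, ATP5MC2, ATP5ME, ATP5MF, ATP5MG, ATP5PD and ATP5PF. What part the trend has in the changes was not tested.

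**Figure D3:**
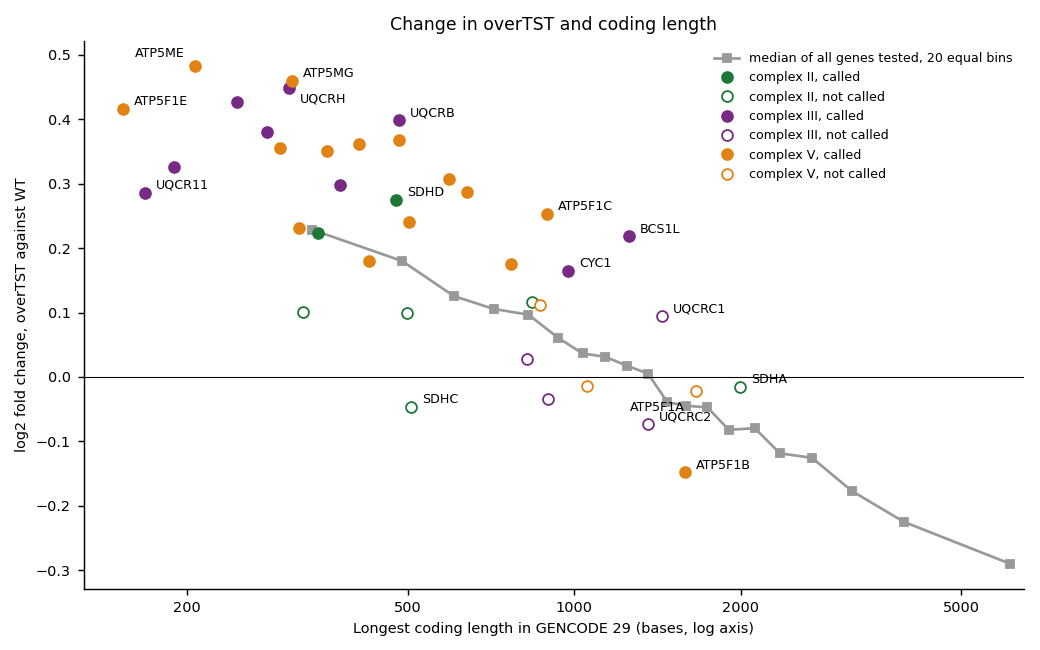
Points are the 38 genes by longest coding length in bases (log axis) and log2 fold change in overTST against WT, filled where called, and the grey line joins the medians of all genes tested in 20 equal bins. ATP5ME (0.48), ATP5MG (0.46) and UQCRH (0.45) are short and lie highest, while SDHC (−0.047) and ATP5F1B (−0.15) lie below the grey line.

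In complex II, the catalytic subunits were not called in overTST. SDHA had 282, 297, 285 and 285 CPM in overTST and 281, 287, 301 and 292 in WT, groups that overlapped, with a log2 fold change of −0.015 (SE 0.046, 95% interval −0.10 to 0.075). SDHB stood at 0.12, SE 0.061, adjusted p = 0.152. Of the membrane anchors, which bind ubiquinone, SDHD had 51.1, 45.6, 52.9 and 49.01 CPM against 41.3, 38.03, 43.5 and 41.6 in WT. All overTST libraries of SDHD were above WT (0.27, SE 0.061, adjusted p = 0.00114), and with the coding length trend removed it was not called (0.11, adjusted p = 0.162). SDHC was not called (−0.047, SE 0.049, adjusted p = 0.5), and its direction turned with the way length was treated (0.14, adjusted p = 0.0406 with the exonic length trend removed, −0.20, adjusted p = 0.00256 with that of coding length).

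Among the assembly factors of complex II, SDHAF1, which helps to bring iron-sulfur clusters to SDHB, had 21.7, 21.7, 20.6 and 22.3 CPM in overTST against 15.8, 19.2, 19.2 and 19.8 in WT. The groups did not overlap (0.22, SE 0.076, adjusted p = 0.0252), but SDHAF1 was not called without WT replicate 1, overTST replicate 2 or overTST replicate 4, or with either length trend removed. SDHAF2, which attaches flavin to SDHA, had 12.6, 10.9, 10.4 and 10.7 CPM against 10.7, 10.3, 10.9 and 9.71, overlapped WT and was not called (0.10, SE 0.088, adjusted p = 0.41). SDHAF4, the least counted of the 38, was not called either (0.10, SE 0.136, adjusted p = 0.607).

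In complex III, all 5 small subunits were higher in overTST, with a median log2 fold change of 0.40. UQCRH, the hinge protein at cytochrome c1 (chr1:46303631-46316776, plus strand, GRCh38), had 149.9, 158, 166 and 160.4 CPM against 108, 109.7, 130.1 and 117 in WT (0.45, SE 0.056, adjusted p = 2.15e-06). UQCRQ had 59.9, 68.9, 69.9 and 66.3 CPM against 47.3, 45.01, 54.5 and 50.7 (0.43, SE 0.063, adjusted p = 1.67e-05). UQCRB, which lies beside cytochrome b, had 112, 121, 122 and 121 CPM against 94.7, 79.6, 94.7 and 91.8 (0.40, SE 0.057, adjusted p = 1.07e-05). In each of these 3 genes every overTST library was above every WT library, and all 3 were called with either length trend removed. UQCR10 (0.33) and UQCR11 (0.29) were higher too, but not with the coding length trend removed (0.051, adjusted p = 0.483, and 0.00032, adjusted p = 0.998). Genes named as copies of UQCRH held 2.35% as many counts as UQCRH itself. How reads were divided between them is not known, so its counts are uncertain by an amount that was not measured.

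Of the larger subunits of complex III, 1 of 4 was higher. The core subunits UQCRC1 (0.094, SE 0.048, adjusted p = 0.14) and UQCRC2 (−0.073, SE 0.049, adjusted p = 0.272) and the Rieske iron-sulfur protein UQCRFS1 (0.028, SE 0.057, adjusted p = 0.747) were not called. CYC1, which hands electrons to cytochrome c, was higher (0.17, SE 0.049, adjusted p = 0.0111), but not without overTST replicate 2 or with either length trend removed. Of the assembly factors, UQCC3 had 34.8, 41.4, 38.1 and 40.8 CPM against 28.7, 27.3, 35.2 and 28.1 in WT, with 1 overTST library inside the WT range (0.38, SE 0.076, adjusted p = 0.000425). UQCC2 had 71.6, 85.9, 80.9 and 86.7 CPM against 65.7, 62.02, 70.5 and 66.3, with no overlap (0.30, SE 0.060, adjusted p = 0.000467). UQCC2 and UQCC3 take part in making cytochrome b, and neither was called with the coding length trend removed. BCS1L, the ATPase that inserts the Rieske protein, was higher (0.22, SE 0.056, adjusted p = 0.00358) and was called with either trend removed, and UQCC1 was not called (−0.034, SE 0.056, adjusted p = 0.675).

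In complex V, the F1 head was divided. The α subunit ATP5F1A was not called (−0.022, SE 0.048, adjusted p = 0.759), but was higher with the exonic length trend removed (0.14, adjusted p = 0.04). The β subunit ATP5F1B (chr12:56638175-56646068, minus strand), whose sites make ATP, had 609, 608, 597 and 588 CPM in overTST against 665, 631, 685 and 682 in WT and was the 1 gene of the 38 that was lower. Its groups did not overlap (−0.15, SE 0.048, adjusted p = 0.0192), but it was not called without WT replicate 4, overTST replicate 3 or overTST replicate 4, with upper-quartile scaling or with the coding length trend removed (−0.11, adjusted p = 0.0895). Of the central stalk, ATP5F1C (γ) was higher by 0.25 (SE 0.050) and ATP5F1D (δ) by 0.24 (SE 0.059), the latter not with either length trend removed. ATP5F1E (ε) had 94.6, 106, 110.4 and 104 CPM against 78.1, 69.5, 89.2 and 74.5 in WT, with no overlap (0.42, SE 0.064, adjusted p = 2.81e-05). ATP5F1E has the shortest coding length of the 38, 153 bases, and with that trend removed it was not called (0.12, adjusted p = 0.0685).

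The small membrane subunits and the peripheral stalk were higher throughout. ATP5ME (e) had 56.4, 68.7, 64.5 and 65.7 CPM in overTST against 42.2, 41.7, 53.04 and 45.9 in WT, the largest log2 fold change of the 38 (0.48, SE 0.071, adjusted p = 1.48e-05). ATP5MG (g) had 131, 149, 149.9 and 151 CPM against 101, 98.3, 115 and 108 (0.46, SE 0.057, adjusted p = 1.95e-06). Neither gene's groups overlapped, and subunits e and g are known for holding neighbouring synthases together. ATP5MF (f) was higher by 0.36 (SE 0.052). ATP5PF, or F6 of the peripheral stalk, which keeps the head from turning with the rotor, had 79.5, 85.00, 86.9 and 83.9 CPM against 64.8, 63.3, 71.8 and 63.2 (0.35, SE 0.054, adjusted p = 2.68e-05). The other 3 stalk genes were higher as well, ATP5PD by 0.37, ATP5PO by 0.29 and ATP5PB by 0.18, and of the 4 ATP5PD and ATP5PF were called with the coding length trend removed. ATP5ME shares 61.6% of its exonic bases with MYL5, and 7 more of the 38 share over 20% with other genes. They are SDHAF2, UQCRQ, UQCC2, UQCC3, ATP5F1E, ATP5PF and ATP5PO, so the same limit holds for their values. Whether reads were counted by strand is not given in the sources used here, and the part of the neighbours in these counts was not tested.

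The inhibitor ATP5IF1, which keeps the enzyme from running in reverse, had 66.2, 73.02, 73.7 and 73.7 CPM in overTST against 60.1, 57.7, 64.00 and 62.7 in WT. The groups did not overlap (0.23, SE 0.055, adjusted p = 0.00199), but ATP5IF1 was not called with either length trend removed. The factors that assemble the F1 head were not called. ATPAF2 had 15.6, 18.2, 19.1 and 19.03 CPM against 15.6, 17.6, 17.3 and 15.9 and overlapped WT (0.11, SE 0.080, adjusted p = 0.296), and ATPAF1 stood at −0.014, SE 0.057, adjusted p = 0.878.

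The c ring, the rotor through which protons pass, is built from 1 protein that ATP5MC1, ATP5MC2 and ATP5MC3 all encode. Their last 75 codons encode the same residues, and the bases are shown because reads of the 3 genes can be told apart only by them and by the sequence outside. The stretches, from GENCODE 29 on GRCh38, lie in 2 coding exons each, at chr17:48895222-48895766 (plus strand), chr12:53665317-53669260 (minus strand) and chr2:175178291-175179169 (minus strand). Capitals mark the positions at which the 3 are not all alike.
ATP5MC1: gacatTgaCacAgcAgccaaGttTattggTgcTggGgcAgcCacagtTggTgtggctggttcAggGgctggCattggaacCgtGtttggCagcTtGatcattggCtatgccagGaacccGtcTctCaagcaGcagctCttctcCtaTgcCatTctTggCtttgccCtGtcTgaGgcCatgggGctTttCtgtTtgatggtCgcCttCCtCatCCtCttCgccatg
ATP5MC2: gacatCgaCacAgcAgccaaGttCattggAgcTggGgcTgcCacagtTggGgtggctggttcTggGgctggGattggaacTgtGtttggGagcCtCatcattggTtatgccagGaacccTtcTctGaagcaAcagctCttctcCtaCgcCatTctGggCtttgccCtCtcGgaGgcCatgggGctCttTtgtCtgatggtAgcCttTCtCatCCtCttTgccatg
ATP5MC3: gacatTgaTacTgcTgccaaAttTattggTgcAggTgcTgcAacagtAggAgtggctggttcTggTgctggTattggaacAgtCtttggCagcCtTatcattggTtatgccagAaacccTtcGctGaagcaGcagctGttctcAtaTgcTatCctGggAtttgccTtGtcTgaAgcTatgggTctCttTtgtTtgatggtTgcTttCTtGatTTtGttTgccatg

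All 3 genes shared 173 of these 225 bases, and the longest run without a difference in any pair was 17 bases. ATP5MC1 had 117, 129.7, 130.1 and 129 CPM in overTST against 94.5, 91.9, 109 and 98.6 in WT (0.36, SE 0.056, adjusted p = 2.63e-05). ATP5MC2 had 103, 109, 114 and 114 CPM against 82.7, 83.3, 101 and 89.1 (0.31, SE 0.059, adjusted p = 0.0003). In both, all overTST libraries were above WT, and both were called with either length trend removed. ATP5MC3 had 296, 316, 308 and 316 CPM against 265, 248, 301 and 278, and 1 WT library lay inside the overTST range. It was higher (0.18, SE 0.054, adjusted p = 0.0117), but not without WT replicate 2 or with the coding length trend removed (0.00087, adjusted p = 0.992).

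**Figure D4:**
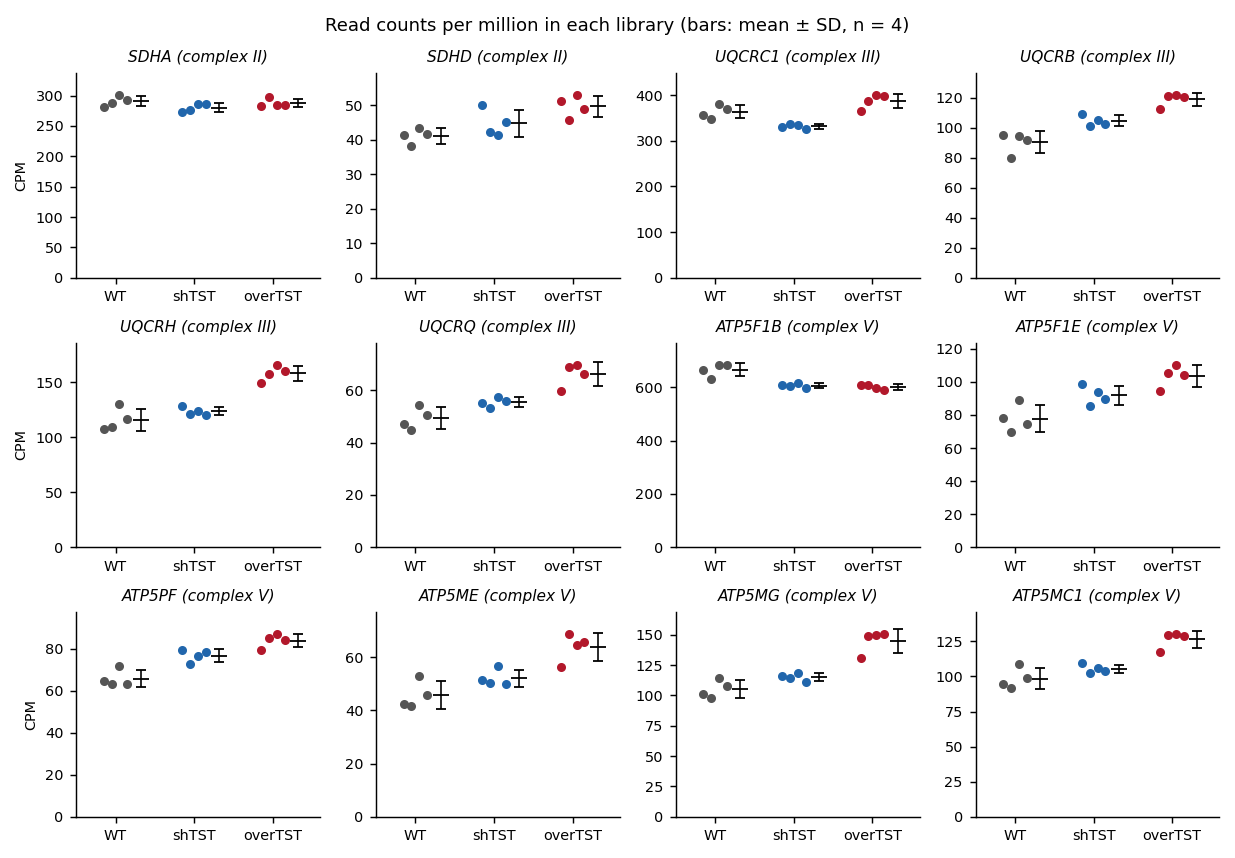
Each point is 1 library, in CPM on an axis from 0, and the bar beside each group is the mean ± SD of its 4 libraries, for 12 of the genes. UQCRH, ATP5MG and ATP5MC1 in overTST lie above WT and shTST, SDHA overlaps across the groups, and ATP5F1B in shTST and overTST lies below WT.

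TST silencing was compared with the same WT libraries, and fewer of the genes were called. In shTST 5 of the 38 were higher and 2 lower, beside 6.69% higher and 9.4% lower of the 14584 genes tested. Upper-quartile scaling gave 9 higher and 0 lower. The median log2 fold change over the 38 was 0.09, beside 0.0040 over all genes tested. No gene of complex II was called, and its log2 fold changes ran from −0.05 for SDHA to 0.14 for SDHAF4. In complex III 2 were higher and 1 lower, and in complex V 3 were higher and 1 lower. With the coding length trend removed, 3 were higher (7.75% of all genes tested) and 4 lower (8.93%). Without WT replicate 3, 13 were higher and 0 lower, and 3 were higher without WT replicate 2 or shTST replicate 1, 3 or 4.

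In complex III, UQCRB had 109, 101, 105 and 103 CPM in shTST, above all WT libraries (0.22, SE 0.053, adjusted p = 0.00715). UQCRQ had 55.2, 53.2, 57.6 and 56.1 CPM and overlapped WT (0.17, SE 0.057, adjusted p = 0.0384), and with the coding length trend removed it was not called (0.079, adjusted p = 0.275). UQCRC1 was lower, with 329.9, 338, 335 and 325 CPM against 356, 348, 380.3 and 370.0 in WT and no overlap (−0.13, SE 0.042, adjusted p = 0.0371), but was not called with a trend with GC content removed (−0.063, adjusted p = 0.297). In complex V, ATP5F1E had 98.9, 85.5, 93.9 and 89.7 CPM and overlapped WT (0.24, SE 0.062, adjusted p = 0.00931), and with the coding length trend removed it was not called (0.12, adjusted p = 0.079). ATP5PF had 79.4, 72.7, 76.4 and 78.5 CPM, above all WT libraries (0.22, SE 0.050, adjusted p = 0.00418). ATPAF1, a chaperone of the β subunit, had 57.7, 50.6, 58.1 and 56.7 CPM against 51.6, 47.2, 49.8 and 49.9 in WT (0.17, SE 0.053, adjusted p = 0.0304), and it was not called with the GC trend removed (0.14, adjusted p = 0.0644). ATP5F1B itself was lower, with 610.1, 605, 615 and 596 CPM, below all WT libraries (−0.13, SE 0.043, adjusted p = 0.0376). Of these 7 genes UQCRB, ATP5F1E and ATP5PF were called whichever library was left out. With 1 library left out, UQCRC1 was called only when that was WT replicate 1 or 2, and ATP5F1B only when it was WT replicate 2.

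UQCRB, UQCRQ, ATP5F1E, ATP5PF and ATP5F1B were called in each comparison with WT. Both comparisons use the same WT libraries, so nothing is read from that, and the values stand side by side. The first 4 were higher in shTST by 0.22, 0.17, 0.24 and 0.22 on the log2 scale, and in overTST by 0.40, 0.43, 0.42 and 0.35. ATP5F1B stood at −0.13 and −0.15. The lines were also compared with each other.

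Between the lines, 20 of the 38 genes were lower in shTST than in overTST and 2 were higher, beside 16.1% lower and 16.9% higher of the 14883 genes tested. The 20 were 9 genes of complex III and 11 of complex V, and 15 of them did not overlap between the lines, as was the case in 78.4% of all genes called lower (12.6% of all genes tested). The median log2 difference over the 38, shTST against overTST, was −0.15, beside 0.00084 over all genes tested. With the coding length trend removed, 10 were lower (14.7% of all genes tested) and 2 higher (12.6%). Those 10 were UQCRC1, UQCRH, CYC1, BCS1L, UQCC2, ATP5F1C, ATP5F1D, ATP5MC1, ATP5MG and ATP5PD.

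ATP5F1D differed most, with 95.4, 95.1, 108 and 93.6 CPM in shTST and 117, 131, 126 and 133 in overTST and no overlap (−0.37, SE 0.060, adjusted p = 5.15e-05). Against WT it was higher in overTST and not called in shTST (−0.13, SE 0.058, adjusted p = 0.143). CYC1 had 201, 196, 222 and 205 CPM in shTST and 240.3, 272, 248 and 250.1 in overTST, again with no overlap (−0.29, SE 0.048, adjusted p = 6.11e-05). UQCRC1, lower in shTST and not called in overTST against WT, was lower in shTST than in overTST (−0.22, SE 0.044, adjusted p = 0.00033). BCS1L (−0.30, SE 0.053, adjusted p = 0.000136) and UQCRH (−0.36, SE 0.053, adjusted p = 1.85e-05) were lower too. SDHC (0.13, SE 0.045, adjusted p = 0.0262) and ATPAF1 (0.18, SE 0.056, adjusted p = 0.0127) were higher in shTST. Neither was called without overTST replicate 2 or with the trend of exonic length or of GC content removed, and SDHC also not without shTST replicate 1, 2 or 4 or overTST replicate 4. For ATP5F1A and ATP5F1B the 95% intervals of the log2 difference were −0.072 to 0.093 and −0.069 to 0.097, and neither was called, whereas both were with the exonic length trend removed (−0.13, adjusted p = 0.0329, and 0.12, adjusted p = 0.032).

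Other genes around these complexes were read from a list of 36, all of which were tested. In overTST 10 of them were higher and 2 lower, in shTST 2 were higher and 3 lower, and between the lines 11 were lower and 1 was higher in shTST. In overTST these were 27.8% higher and 5.56% lower, beside 15.7% and 18.2% of all genes tested. In shTST they were 5.56% and 8.33%, near the 6.69% and 9.4% of all genes. Between the lines 30.6% were lower and 2.78% higher, beside 16.1% and 16.9%. Of all genes with up to 600 coding bases 45.2% were higher in overTST, and 34.6% were lower in shTST than in overTST. The 36 genes were not counted by coding length. ATP5MD, a small subunit of complex V, was higher in overTST (0.50, SE 0.058, adjusted p = 9.36e-07) and lower in shTST than in overTST (−0.36, SE 0.053, adjusted p = 1.65e-05). ATP5MPL, another small subunit, was higher in overTST (0.39, SE 0.066, adjusted p = 8.61e-05) and in shTST (0.20, SE 0.061, adjusted p = 0.0255). CYCS, cytochrome c itself, was higher in overTST (0.20, SE 0.047, adjusted p = 0.00219), but not with the coding length trend removed. For the other listed genes, among them ATP5MD and ATP5MPL with 174 and 297 coding bases, values with that trend removed are not given here. COQ8A, needed for ubiquinone synthesis, was lower in overTST (−0.18, SE 0.048, adjusted p = 0.00401) and in shTST (−0.16, SE 0.043, adjusted p = 0.0114).

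COQ8B was lower in shTST than in WT (−0.24, SE 0.074, adjusted p = 0.0271). SLC25A4, which exchanges ATP for ADP across the inner membrane, was lower there as well (−0.19, SE 0.051, adjusted p = 0.0126). SLC25A6, which does the same, was lower in shTST than in overTST (−0.26, SE 0.047, adjusted p = 0.000148), and so was COQ4 of ubiquinone synthesis (−0.32, SE 0.061, adjusted p = 0.000275). MT-CYB, the mitochondrially encoded cytochrome b of complex III, was higher in overTST than in WT (0.46, SE 0.125, adjusted p = 0.00638) and lower in shTST than in overTST (−0.66, SE 0.124, adjusted p = 0.000242). The mitochondrially encoded complex V subunits MT-ATP6 (0.47, SE 0.135, adjusted p = 0.00865) and MT-ATP8 (0.41, SE 0.138, adjusted p = 0.0228) were higher in overTST too. All 3 overlapped WT, where the share of mitochondrially encoded counts ran over the range given above.

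Summed over a complex, complex II came to 521 ± 15.3 CPM in WT, 524 ± 5.23 in shTST and 531 ± 4.59 in overTST (SD, n = 4 each). Complex III came to 1532 ± 58.6, 1518 ± 17.9 and 1713 ± 51.9, and the overTST libraries, 1637 to 1747, lay above those of WT, 1458 to 1599. Complex V came to 2799 ± 147, 2837 ± 50.5 and 3072 ± 56.6, and overTST, 2993 to 3113, again lay above WT, 2620 to 2972. The sums are descriptions and were not tested.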

How the data were processed

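RNA of 12 HepG2 libraries was measured, 4 each of WT, shTST and overTST. The authors deposited read counts per Ensembl gene, whole numbers and not normalized. The submitters' processing notes name Trimmomatic 0.36, STAR 2.5.2b, featureCounts of Subread 1.5.2 and GRCh38, and the strand setting is not given in the sources used here. The members, their roles and the list of 36 other genes were chosen with earlier results of these data known.

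Counts were filtered with filterByExpr, scaled by TMM and tested over all genes with edgeR 4.0.16 in R 4.3.3 (quasi-likelihood test, Benjamini-Hochberg adjustment, threshold 0.05). Comparisons with WT used their own 8 libraries, and shTST against overTST all 12. SE is the size of the log2 fold change over the square root of F, and 95% intervals are normal ones from it. TPM used the exonic length in the files and served to order genes within WT and to read the cell type markers. TPM was not compared between groups, since the median gene tested lay at −0.18 in overTST against WT on the log2(TPM + 1) scale. Depth (22911380 to 45120508 counts) sets the counting error, and the least counted gene, SDHAF4, had 79 to 144 counts per library. Length and GC trends were removed in each library by lowess (span 0.3), and coding length is the longest coding sequence in GENCODE 29. Single values per library were compared by exact permutation (scipy 1.17.1). Alternatives were DESeq2 1.42.0, limma-voom (limma 3.58.1), RLE and upper-quartile scaling, other filters, other sets of libraries or genes, a replicate block, leaving out each library, and length and GC corrections. The coding length correction was chosen after seeing the data. The fits were also run on simulated counts, which held no length or GC trend and so cannot show how the trend corrections behave.

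Library values were given, per complex and comparison with WT, for the 3 called members with the largest change, members called in both (up to 4), the subunit c genes, the 2 assembly or inhibitor genes of each complex with the smallest p in overTST, and TST. From the other genes, up to 4 called with the smallest p per comparison were named. SDHA, MT-ATP6, MT-ATP8 and the genes described between the lines were chosen after their values were seen.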

Additional observations from a re-analysis of the deposited data

Results flagged for a closer look

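Over the 38 genes and 3 groups, 114 sets of 4 libraries were searched for a library far from the other 3 (Dixon's criterion at the 95% level), and 10 held one. Chance alone gives about 1 in 20 per set. The sets share their libraries and are not independent, and overTST replicate 1, WT replicate 1 and WT replicate 2 each recur. SDHB had 42.4 CPM in WT replicate 1, against 47.4 to 47.7 in the other libraries of that group. SDHAF1 had 15.8 CPM in WT replicate 1, against 19.2 to 19.8 in the other libraries of that group. UQCRB had 112 CPM in overTST replicate 1, against 121 to 122 in the other libraries of that group. UQCR10 had 57.7 CPM in WT replicate 2, against 62.5 to 63.2 in the other libraries of that group. ATP5F1A had 519.7 CPM in overTST replicate 2, against 544 to 549 in the other libraries of that group. ATP5F1C had 158 CPM in WT replicate 2, against 176 to 179 in the other libraries of that group. ATP5F1D had 108 CPM in shTST replicate 3, against 93.6 to 95.4 in the other libraries of that group. ATP5MC1 had 117 CPM in overTST replicate 1, against 129 to 130.1 in the other libraries of that group. ATP5MG had 131 CPM in overTST replicate 1, against 149 to 151 in the other libraries of that group. ATP5IF1 had 66.2 CPM in overTST replicate 1, against 73.02 to 73.7 in the other libraries of that group. No cause of these values was tested.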

How the results depend on the processing

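Counts of the 38 genes called higher or lower stayed within 1.5 times with DESeq2, limma-voom, RLE scaling, other filters on low counts and without mitochondrially encoded genes. In shTST against WT (5 higher, 2 lower), higher and lower were 9 and 0 with upper-quartile scaling, 8 and 1 with the GC correction, 3 and 4 with the coding length correction, which was chosen after seeing the data, and 3 to 13 and 0 to 3 without 1 library. In overTST against WT (25 higher, 1 lower), 12 were higher with the coding length correction, 0 lower with upper-quartile scaling, and 23 to 25 higher and 0 to 1 lower without 1 library. In shTST against overTST (2 higher, 20 lower), 1 was higher with the exonic length correction and 0 with the GC correction, 10 were lower with the coding length correction, and 0 to 2 were higher and 17 to 21 lower without 1 library. Of the 15 genes that share no exonic bases, and thus fewer genes, 0 were higher in shTST and 8 in overTST, and 0 were higher and 7 lower between the lines. With the exonic length correction, alone or with the replicate block, SDHC turned to 0.14 and ATP5F1A to 0.14 in overTST, and to −0.034 and −0.13 between the lines, and with the coding length correction CYCS turned to −0.019 in overTST, or −0.018 with the block. Same-numbered libraries of different groups had correlations of −0.053 to 0.08 between their deviations, so the numbers were not taken to pair libraries. The replicate block gave 10 higher and 4 lower in shTST, 9 and 4 with the exonic length correction, 9 and 1 with GC and 4 lower with coding length. With the block, 16 were higher in overTST after the coding length correction and 1 was higher between the lines after the GC correction. Apart from the smaller number of genes or libraries, the cause was not tested.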
